A study of Oryctolagus cuniculus with 4 samples.

Results

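The spots described here are capture spots of 1 section of healthy rabbit supraspinatus muscle, stored for 6 years, in which at least 2 molecules of MYH8 were counted. MYH8 (ENSOCUG00000010229) encodes neonatal myosin heavy chain. The members were chosen by this count, so their MYH8 level is the selector and not a result. They number 122 of the 2440 spots of the section, or 5%, and of 6970 spots in the series. The comparison spots are the 1946 spots of the same section with 0 MYH8 UMIs and 500 or more UMIs in all. A UMI is a molecular tag, so that a count of UMIs is a count of captured RNA molecules. A further 314 spots had 1 MYH8 UMI and 58 spots had 0 MYH8 UMIs and under 500 UMIs in all; these belong to neither group.

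The section was made with the Visium 3′ assay, in which tissue lies on a slide of barcoded spots, each large enough to hold parts of several fibers and other cells. All sections came from the posterior distal supraspinatus of female New Zealand White rabbits, skeletally mature at 6 months of age. The paper describes the sampled part of the muscle belly as without fascia and without tendon or its junction. The tissue was snap-frozen and kept deep-frozen. There was 1 section per condition: healthy muscle stored for 6 years (14R, the section described here), healthy muscle used fresh (211R), and muscle harvested 2 weeks (6L) and 16 weeks (14L) after tenotomy, both stored for 6 years. By their labels, 14R and 14L are the right and left side of 1 animal. With 1 section per condition and spots that are not replicates, no test was possible, and the 95% intervals below cover counting error only.

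Neonatal myosin is made by muscle fibers during development and again by fibers that rebuild after injury, together with the embryonic light chain MYL4, cardiac α-actin (ACTC1) and embryonic myosin (MYH3). In adult muscle it also persists in the small fibers inside muscle spindles, the stretch receptors, which keep developmental, slow-tonic and α-cardiac myosins within a capsule supplied by nerve. Fibers next to tendon and denervated fibers are other places where developmental genes are known to be used in adult muscle. The question set to these spots was which of these gene groups, if any, accompanied MYH8 in muscle labeled as healthy.

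Each of the 122 member spots held UMIs of MYH7 (slow myosin) and 120 held UMIs of MYH1 (type 2x myosin). MYH7 was also detected in 99.8% of the comparison spots and MYH1 in 97.3%. As nearly every spot held these genes, their detection alone cannot tell muscle from other tissue under a spot. Median counts of MYH7 and MYH1 were 36 and 28.5 UMIs in the members, against 32 and 29 in the comparison spots. The members were somewhat deeper, with a median of 5835 UMIs (lowest 1425, highest 16884) against 5159.5 in the comparison spots, and with a median of 772.5 genes per spot against 687. Mitochondrial genes took 46.2% of their UMIs against 49.4%. MYH8 was unevenly spread among the members. Exactly 2 UMIs were counted in 61 of them, 5 or more in 27, and the 2 spots with most held 83 and 53 UMIs, which is 24.1% of the 564 MYH8 UMIs of all members.

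Per 10000 UMIs, 27 of 1698 genes with 200 or more UMIs over both groups were at least 2-fold higher in the member spots (1.59%), and 4 were at least 2-fold lower (0.236%). The median log2 ratio over all 1698 genes was 0.16. The 12 named genes with the highest ratios included 3 of the macrophage list (MMP12, GPNMB and CD68). They also included galectin-3 (LGALS3), the actin-capping protein CAPG and the lysosomal proteases CTSV, CTSK and CTSB. The other 4 were ANXA8, an annexin, NES, the intermediate filament protein of immature muscle, CASQ2, the calsequestrin of slow and cardiac muscle, and SLC38A1, a glutamine transporter. When comparison spots were weighted to the depth of the members, 9 genes were 2-fold higher, and 12 when weighted to both the depth and the MYH7 share of the members. The 9 at like depth were MMP12, GPNMB, LGALS3, CD68, CAPG, CTSV, CTSK, CTSB and the unnamed ENSOCUG00000014136. ANXA8 (0.86), CASQ2 (0.76), NES (0.61) and ACTC1 (0.45) fell under 2-fold. Without the 1 member spot with most GPNMB UMIs, 14 of the 27 genes remained at 2-fold. LGALS3, CD68, CAPG, CTSV and CTSB did not.

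Of the 6 developmental sarcomere genes, MYL4, ACTC1 and MYBPH have a feature in the count table. MYH3, TNNT2 and MYL6B were not analysed here. Only ACTC1 had enough UMIs to be counted among the 1698 genes. As a list, the 3 genes had 883 UMIs in the members, a log2 ratio of 1.18 (interval 1.08 to 1.29), and 0.57 at like depth.

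MYL4 (ENSOCUG00000010829), the light chain of embryonic and atrial muscle, had 84 UMIs in the 122 member spots and 40 in the 1946 comparison spots. Its level was 1.14 per 10000 UMIs in the members and 0.0399 in the comparison spots, a log2 ratio of 4.82 (4.27 to 5.41) that was also 4.82 at like depth. It was detected in 16 of 122 members (13.1%, exact binomial interval 7.69 to 20.4) and in 33 of 1946 comparison spots (1.70%, 1.17 to 2.37). The median was 0 UMIs in both groups. The highest member spots held 30 and 26 UMIs and the highest comparison spot 3, and 4 members lay above every comparison spot. The spots with 30 and 26 MYL4 UMIs were those with 53 and 83 MYH8 UMIs. Without these 2 spots the log2 ratio of MYL4 was 3.32. Most member spots therefore held no MYL4, and most of the MYL4 UMIs lay in 2 spots.

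ACTC1 (ENSOCUG00000004074), the actin of heart and of developing skeletal muscle, had 779 UMIs in the members and 5092 in the comparison spots. That is 10.5 against 5.07 per 10000 UMIs, a log2 ratio of 1.06 (0.94 to 1.16). It was detected in 84 of 122 members and in 1096 of 1946 comparison spots. The median was 2 UMIs in members and 1 in comparison spots, the upper quartile 8 and 2, and the highest spot 109 and 77. The groups overlapped, and 1 member lay above every comparison spot. At like depth the log2 ratio was 0.45, and at like depth and MYH7 share 0.60. MYBPH, a myosin-binding protein, had 20 UMIs in 14 members and 146 UMIs in the comparison spots, a log2 ratio of 0.93 (0.14 to 1.57) that was 0.16 at like depth.

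Just inside the threshold, the 61 spots with exactly 2 MYH8 UMIs held 1 MYL4 UMI in all, 0.0305 per 10000 UMIs. Just outside, the 312 spots with 1 MYH8 UMI and 500 or more UMIs in all held 10, or 0.0572 per 10000. The ACTC1 level was 4.48 with 2 MYH8 UMIs, 5.23 with 1 and 5.07 with 0. Higher up, MYL4 stood at 0.325 per 10000 UMIs in the 34 spots with 3 to 4 MYH8 UMIs, at 1.39 in the 21 spots with 5 to 9 and at 10.8 in the 6 spots with 10 or more. ACTC1 stood at 11.1, 13.7 and 37.8 in the same classes. In the class with 10 or more, 2 spots held 109 and 70 of the 196 ACTC1 UMIs. The same 2 spots held 26 and 30 of the 56 MYL4 UMIs. The share of MYH7 in MYH7 and MYH1 UMIs also differed between classes. Its median was 50% with 0 MYH8 UMIs, 59.7% with 3 to 4, 65.8% with 5 to 9 and 91.8% with 10 or more. CASQ2 was already at 2.29 with 2 MYH8 UMIs against 1.34 with 0, and reached 8.87 with 10 or more. Spots just inside the threshold thus had MYL4 and ACTC1 levels like those of spots without MYH8, while NES and CASQ2 climbed over several classes.

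**Figure D1:**
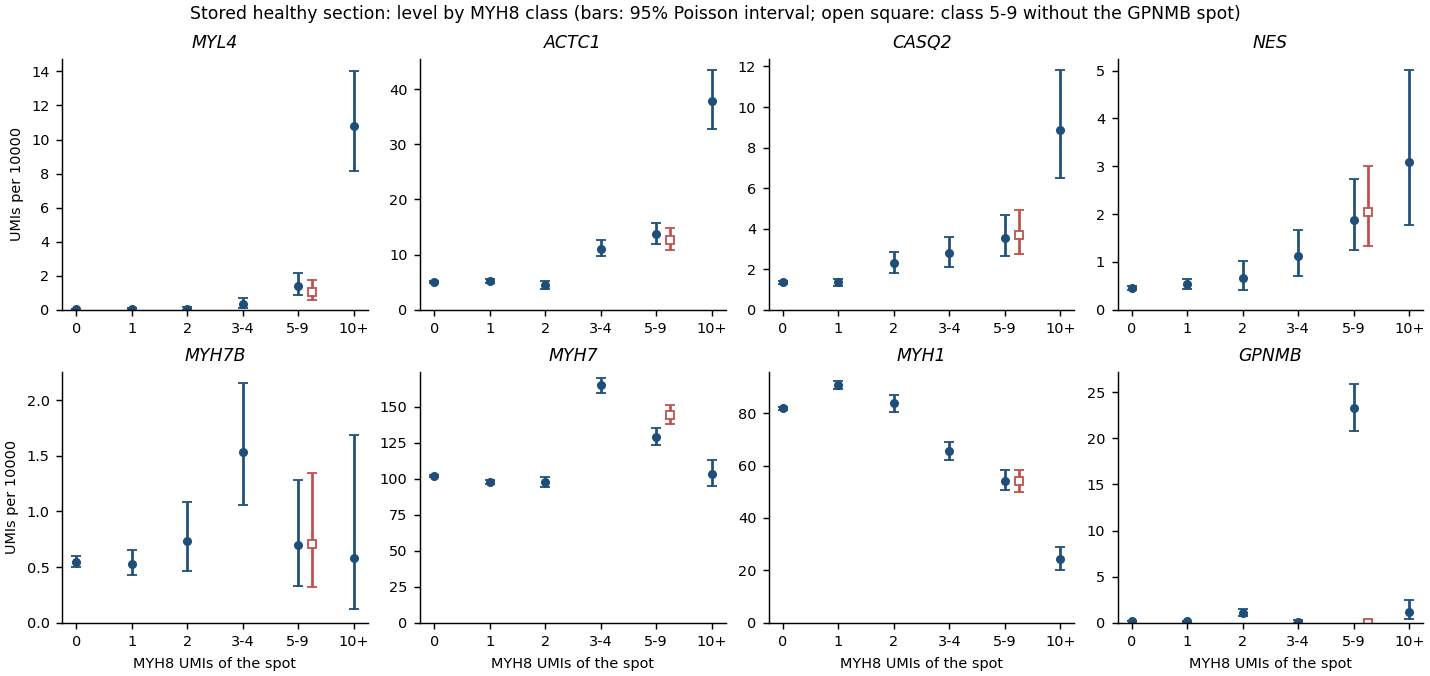
Level of 8 genes (UMIs per 10000 UMIs, y axis) in spots of the stored healthy section grouped by their MYH8 UMIs (x axis), with 95% Poisson intervals. MYL4 rises from 0.0399 in spots with 0 MYH8 UMIs to 10.8 in those with 10 or more, where its 56 UMIs lay in 2 of 6 spots. MYH7B is highest at 3 to 4, with an interval that overlaps those of the higher classes. The high GPNMB level at 5 to 9 disappears when 1 spot is left out (open square).

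Of the 27 members with 5 or more MYH8 UMIs, 11 held MYL4 and 16 did not. The 16 without MYL4 had 135 MYH8 UMIs between them. Single spots show the spread. The spot with 18 MYH8 UMIs had 0 MYL4 and 8 ACTC1 UMIs, the spot with 14 had 0 and 6, and the spot with 10 had 0 and 0. A spot with 6 MYH8 UMIs and 5125 UMIs in all had 2 MYL4 and 16 ACTC1 UMIs in a field that was mostly fast, with 91 MYH1 and 25 MYH7 UMIs. Read the other way, 16 of the 57 spots of the section with any MYL4 were members (28.1%, 16.97 to 41.5), and 5 of the 7 spots with 3 or more MYL4 UMIs were. Of the 133 spots with 8000 UMIs or more, 21 were members (15.8%, 10.0 to 23.1), against 5% of all spots.

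**Figure D2:**
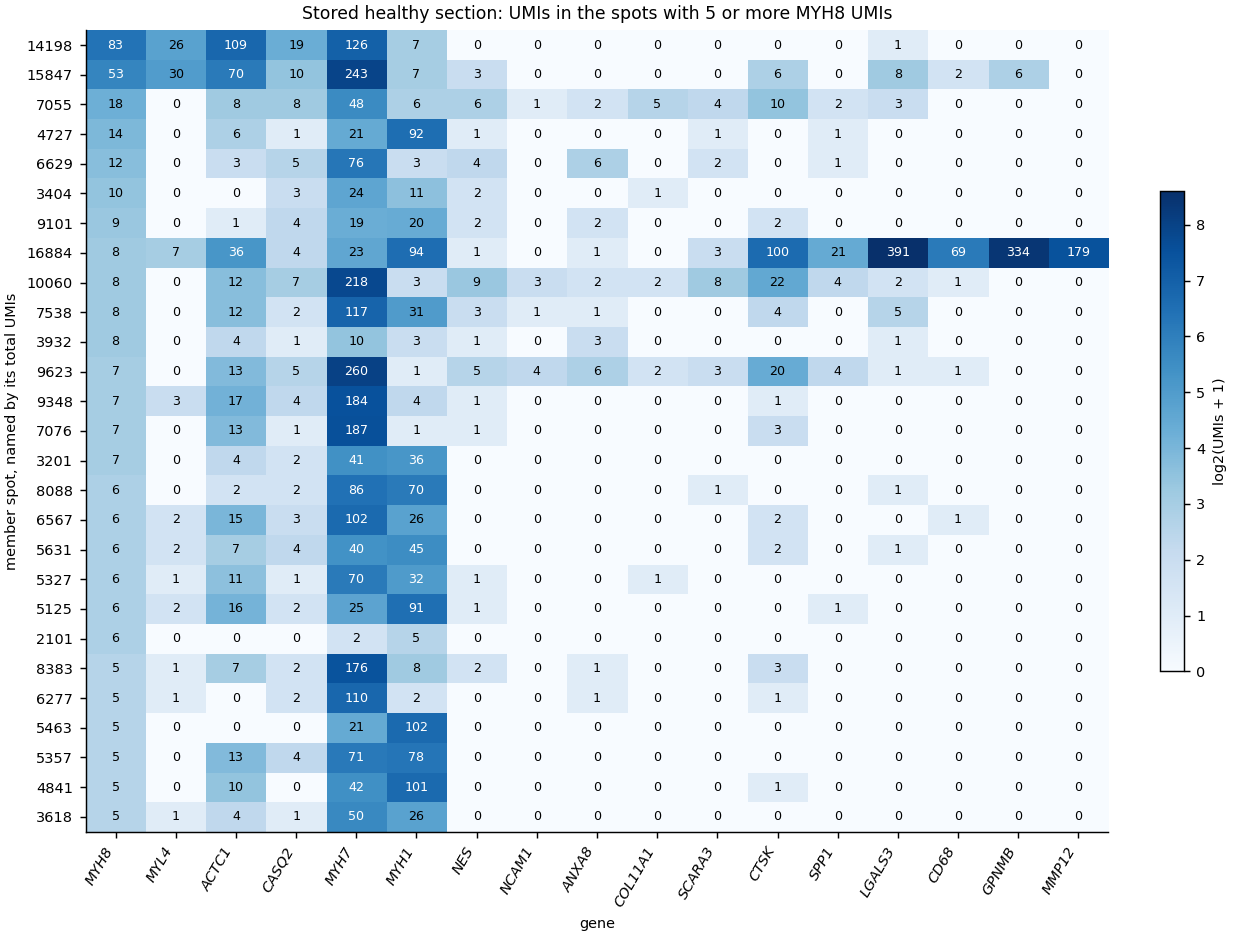
UMIs of 17 genes (columns) in the 27 member spots with 5 or more MYH8 UMIs (rows, labeled by the total UMIs of the spot); the color is log2(UMIs + 1). MYL4 is found in 11 rows, the macrophage genes on the right are concentrated in the spot with 16884 UMIs, and NES, ANXA8, SCARA3 and CTSK occur together in a few MYH7-rich spots.

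Slow and type 2x myosin were both found among the members. The share of MYH7 in the sum of MYH7 and MYH1 UMIs had a median of 54.7% in members (quartiles 27.4 and 93.6) and of 50% in comparison spots (25.5 and 85.5). A share of 90% or more was found in 34 of 122 members (27.9%, 20.1 to 36.7) and in 429 of 1946 comparison spots (22.0%, 20.2 to 24.0). Of the adult slow fiber list, 8 of 10 genes have a feature and all 8 were tested. Their median log2 ratio was 0.18, near the 0.16 of all genes, and 1 of the 8, CASQ2, was 2-fold higher. MYL2, the slow regulatory light chain, had a log2 ratio of 0.27 (0.25 to 0.29), and MYH7 (ENSOCUG00000011037) 0.28 (0.25 to 0.31). All 7 tested genes of the adult fast list lay between -0.26 and 0.20, with MYL1 at -0.23 and MYH1 at -0.26. At like depth the signs turned, with MYH7 at -0.16 and MYH1 at 0.09, and the part of depth in these differences was not tested further.

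CASQ2 (ENSOCUG00000010594) stood apart from the other slow genes. It had 232 UMIs in 73 members and 1349 UMIs in 721 comparison spots, or 3.14 against 1.34 per 10000 UMIs. The log2 ratio was 1.23 (1.02 to 1.43), 0.76 at like depth and 0.92 at like depth and MYH7 share. The highest member spots held 19 UMIs and the highest comparison spot 18, and the medians were 1 and 0.

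Among genes with 200 or more UMIs, the highest ratios were those of MMP12 and GPNMB, and most of the UMIs behind them lay in 1 spot. GPNMB (ENSOCUG00000026334), a glycoprotein of lysosome-rich macrophages, had 375 UMIs in 9 members, of which 334 were in a single spot with 8 MYH8 UMIs, 7 MYL4 UMIs, 36 ACTC1 UMIs and 16884 UMIs in all. Mitochondrial genes took 19.5% of that spot's UMIs. The same spot held 179 of 194 UMIs of MMP12 (macrophage elastase), 69 of 86 of CD68 (a lysosomal membrane protein of macrophages), 391 of 483 of LGALS3 (galectin-3), 191 of 310 of CTSB and 100 of 290 of CTSK (lysosomal proteases), and 49 of 70 of CAPG, a capping protein of actin filaments. The highest comparison spot held 12 GPNMB, 7 MMP12 and 13 LGALS3 UMIs. With the spot, the log2 ratio of GPNMB was 4.94, that of MMP12 5.71 and that of LGALS3 3.03. Without it they were 1.79, 2.09 and 0.67, so GPNMB and MMP12 stayed past 2-fold and LGALS3 did not. Of the UMIs then left, 22 of 41 of GPNMB and 10 of 15 of MMP12 lay in 1 further member. GPNMB was detected in 7.38% of members and 5.55% of comparison spots, and MMP12 in 4.10% and 1.49%.

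Of 14 macrophage genes, 13 have a feature, 8 were tested and 3 were 2-fold higher, beside 1.59% of all tested genes, with a median log2 ratio of 0.78 against 0.16 over all genes. Without the GPNMB spot 2 of the list were 2-fold higher. SPP1, too low to be tested, was at 3.13 (2.55 to 3.69), and at 2.27 without that spot. The complement genes C1QA (log2 ratio 0.19) and C1QC (0.82), and the receptors CSF1R (0.43) and CD14 (0.53), stayed under 2-fold. Without the GPNMB spot, CSF1R was at -0.02 and CD14 at 0.13, while C1QA was at 0.23 and C1QC at 0.85. Together the 13 genes had a log2 ratio of 2.63 with the spot and 0.76 without it. A smaller peak of the same genes lay in another member, which had 2 MYH8 UMIs with 22 GPNMB, 10 MMP12 and 24 LGALS3 UMIs and 0 MYL4 UMIs. In all, 4 of the 8 spots of the section with 5 or more GPNMB UMIs were members, with between 2 and 53 MYH8 UMIs. Whether macrophages and MYH8 came from the same place within a spot was not tested.

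A further set of members was rich in NES (ENSOCUG00000001454), which encodes nestin, a filament of immature fibers that is also found at neuromuscular and myotendinous junctions. NES had 89 UMIs in 37 members and 463 UMIs in 291 comparison spots, a log2 ratio of 1.39 (1.04 to 1.71) and of 0.61 at like depth. The median was 0 UMIs in both groups, and the highest spots held 9 and 15. At least 3 NES UMIs were counted in 11 members, which were grouped after their values were seen and had between 2 and 53 MYH8 UMIs. They were deep, with 6629 to 15847 UMIs, and slow, with a median MYH7 share of 98.6%. Only 1 of the 11, the spot with 53 MYH8 UMIs, held MYL4.

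Of the 10 NES-rich members without MYL4, 6 carried genes of connective tissue and tendon. COL11A1, a fibrillar collagen, had 20 UMIs over the 10 spots, a log2 ratio of 4.66 (3.85 to 5.35). TNMD, the tendon protein tenomodulin, had 14 UMIs and a log2 ratio of 4.92 (3.92 to 5.76). No like-depth values are given for these 10 deep spots. Over all members, like depth took TNMD from 2.29 to 0.69 and COL11A1 from 2.04 to 1.08. NCAM1, an adhesion molecule of satellite cells and of regenerating or denervated fibers, had 10 of the 12 UMIs of all members. ANXA8 had 30 of 51 UMIs. COL1A2, a chain of type I collagen, was at 55.0 per 10000 UMIs against 9.84 in comparison spots, CTSK, a collagen-cleaving protease, at 9.89 against 1.27, and MYH7 at 251 against 102. The 10 spots were split, after their values were seen, into 6 with COL11A1 and 4 without. COL11A1 is thus the selector of this split and not a result of it. All 14 TNMD UMIs and 486 of the 512 COL1A2 UMIs lay in the 6 spots. The other 4 held 0 TNMD UMIs, and their COL1A2 level was 8.92 per 10000 UMIs, below that of the comparison spots. GPNMB and MMP12 were at 0 in all 10, while SPP1 (osteopontin), also of the macrophage list, had 17 UMIs in 7 of them, a log2 ratio of 4.74 (3.85 to 5.49).

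The same combination existed without MYH8. There were 33 comparison spots with 3 or more NES UMIs, and in them COL11A1 had a log2 ratio of 3.26 to all comparison spots, TNMD of 4.27, NCAM1 of 3.93, CTSK of 2.07, COL1A2 of 2.28 and MYH7 of 1.38. Since they are part of the comparison spots, these ratios are descriptions only. Of the 51 spots of the section with 3 or more NES UMIs, 11 were members (21.6%, 11.3 to 35.3), and of the 40 spots with TNMD, 8 were (20%, 9.05 to 35.6). The median depth of the NES-rich spots was 7920 UMIs, and the part of depth in this share was not tested.

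Over all members, the tendon list (6 of 9 genes with a feature) had a log2 ratio of 1.39 (1.01 to 1.73), and 0.60 at like depth. Only KERA of this list was tested, at 0.75. Of 15 connective tissue genes, 9 have a feature, and the 6 tested ones had a median of 0.55 with none at 2-fold: COL3A1 was at 0.45 (0.37 to 0.52), COL1A2 at 0.81 (0.73 to 0.90), DCN, the proteoglycan decorin, at 0.18 (0.07 to 0.29), and COL1A1 at 0.70. At like depth the summed list was at 0.12.

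The remaining 96 members had neither MYL4 nor 3 NES UMIs, and held 289 of the 564 MYH8 UMIs with a median of 2 and a maximum of 14 per spot. They were chosen for the lack of 2 genes, which leaves out the spots richest in ACTC1 and collagen, so their values are a description of what the filter left. ACTC1 in them was at 5.60 per 10000 UMIs against 5.07 in comparison spots, a log2 ratio of 0.15 (-0.03 to 0.31). MYH7 was at -0.04 and MYH1 at 0.10, COL1A2 at 0.04 and COL11A1 at -0.36 (-2.88 to 1.02). CASQ2 remained above, at 0.48 (0.16 to 0.77), MYH7B at 0.62 (0.12 to 1.05) and XIRP2, a repeat protein of stressed sarcomeres, at 0.52 (0.36 to 0.68). GPNMB was at 2.06, with 35 UMIs in 7 spots, 22 of them in 1 spot.

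**Figure D3:**
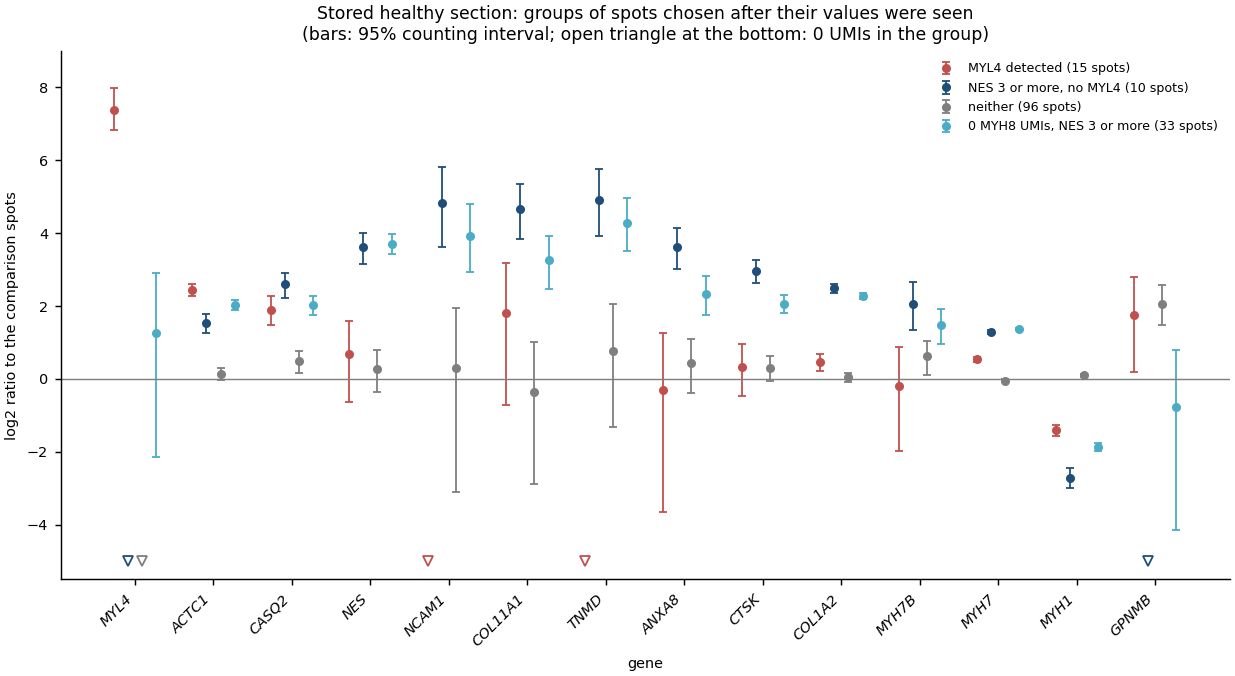
Log2 ratio to the comparison spots (y axis) of 14 genes (x axis) in 15 members with MYL4 (the GPNMB spot left out), 10 members with 3 or more NES UMIs and no MYL4, the other 96 members, and 33 comparison spots with 3 or more NES UMIs, with 95% counting intervals. The NES-rich members and the NES-rich spots without MYH8 are both high in TNMD (4.92 and 4.27), COL11A1 (4.66 and 3.26) and CTSK (2.97 and 2.07), a likeness that was not tested, and the 96 members lie near 0 for ACTC1, MYH7, MYH1 and COL1A2.

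Of the 7 genes listed for the fibers inside spindles, MYH7B, MYH13, ETV4 and NTF3 have a feature. MYH6, the α-cardiac myosin, MYH15 and EGR3 were not analysed here, so that the intrafusal type could be judged on little. MYH7B (ENSOCUG00000002272), the slow-tonic myosin of spindle and eye muscle fibers, had 70 UMIs in 43 members (35.2%, 26.8 to 44.4) and 552 UMIs in 381 comparison spots (19.6%, 17.8 to 21.4). The log2 ratio was 0.79 (0.40 to 1.14), 0.40 at like depth and MYH7 share and 0.24 at like depth. The highest member held 7 UMIs and the highest comparison spot 13. By MYH8 class, MYH7B was at 1.53 per 10000 UMIs (1.05 to 2.15) with 3 to 4 MYH8 UMIs, against 0.550 with 0. It was at 0.697 (0.33 to 1.28, 10 UMIs) with 5 to 9 and at 0.578 (0.12 to 1.69, 3 UMIs) with 10 or more. The intervals of these 3 classes overlap, so whether MYH7B followed MYH8 upward cannot be told. Of the 139 spots with 2 or more MYH7B UMIs, 14 were members (10.1%, 5.62 to 16.3).

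The other spindle genes were close to absent. MYH13, the myosin of eye muscle, had 3 UMIs in members and 32 in comparison spots, and ETV4 and NTF3, a transcription factor and a neurotrophin of spindle fibers, had 0 in members and 2 each in comparison spots. Of the capsule and perineurium genes, the glucose transporter SLC2A1 had 12 UMIs in members and 100 in comparison spots (log2 ratio 0.76, -0.30 to 1.57), VCAN had 1 and 7, CLDN1 0 and 1, and NGFR 0 and 0. Of the nerve and Schwann cell genes, S100B had 9 and 122 UMIs (log2 ratio 0.07, -1.16 to 0.97), CDH19 0 and 6 and SCN7A 0 and 6. For the genes with 0 to 3 UMIs in the members, a difference was not detectable at this depth.

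The genes of muscle precursor cells were as sparse. Of 14 genes, 11 have a feature and 7 were detected in either group. As a list they had 18 UMIs in the members and 176 in the comparison spots, a log2 ratio of 0.51 (-0.31 to 1.18). The list's ratio was 0.03 at like depth, and 12 of the 18 UMIs were of NCAM1. NCAM1 itself, with 39 UMIs in the comparison spots and too low to be tested, had a log2 ratio of 2.10 (0.99 to 3.03). It was at 1.12 at like depth and at 1.48 at like depth and MYH7 share. MYF6, a myogenic factor of mature fibers, had 5 UMIs in members and 77 in comparison spots, MYF5 1 and 32, MYOG 0 and 1, PAX3 0 and 6, VCAM1 0 and 18 and CALCR 0 and 3. PAX7, the satellite cell factor, had 0 UMIs in both groups, as had MYMX, a fusion protein, MEGF10 and HEYL. MYOD1 and MYMK were not analysed here. Of 12 genes listed as raised in regenerating fibers, only NES, VIM (vimentin) and KLHL41, 3 in all, have a feature. VIM was at 0.43 (0.15 to 0.68), and at 0.12 at like depth. KLHL41 was at -0.22 (-0.75 to 0.25). In the cell cycle list, 4 of 6 genes have a feature, with a summed log2 ratio of 0.13 (-0.50 to 0.67). PCNA had 22 and 320 UMIs (log2 ratio -0.07), CDK1 5 and 20, and TOP2A 0 and 2. The members held 738935 UMIs in all and the comparison spots 10033766, so equal levels would give far fewer UMIs in the members.

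The acetylcholine receptor and denervation list gave no higher level in the members. Its 7 genes with a feature had 15 UMIs in members and 288 in comparison spots, a log2 ratio of -0.45 (-1.36 to 0.25). ETV5, a factor of synaptic nuclei, had 7 and 152 UMIs, CHRNA1, the receptor's α subunit, 2 and 65, and the stress gene GADD45A 3 and 18. Of the junction and mechanical stress list, 5 of 8 genes with a feature were tested, with a median of 0.33 and none at 2-fold. ANKRD1, a stress-responsive repeat protein, was at 0.33 (0.20 to 0.46), XIRP2 at 0.48 (0.34 to 0.61), CSRP3, the muscle LIM protein, at 0.55 (0.38 to 0.70), and NRAP at -0.07. TIGD4 was counted 3 times in members and 2 times in comparison spots, and all 3 were in NES-rich members.

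The vessel list lay below the comparison spots, with a log2 ratio of -0.30 (-0.50 to -0.11) over 7 genes. ACTA2, the actin of vessel smooth muscle, had 51 UMIs in 26 members and 1214 UMIs in 503 comparison spots, a log2 ratio of -0.80 (-1.24 to -0.41) and -0.95 at like depth, and VWF, of endothelium, was at -0.19 (-0.45 to 0.06). Of 6 adipocyte genes, only 2, ADIPOQ and LEP, have a feature, so adipocytes could be judged on little. The members held 1 UMI of ADIPOQ and 0 of LEP, and the comparison spots 6 UMIs of the 2 genes together.

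**Figure D4:**
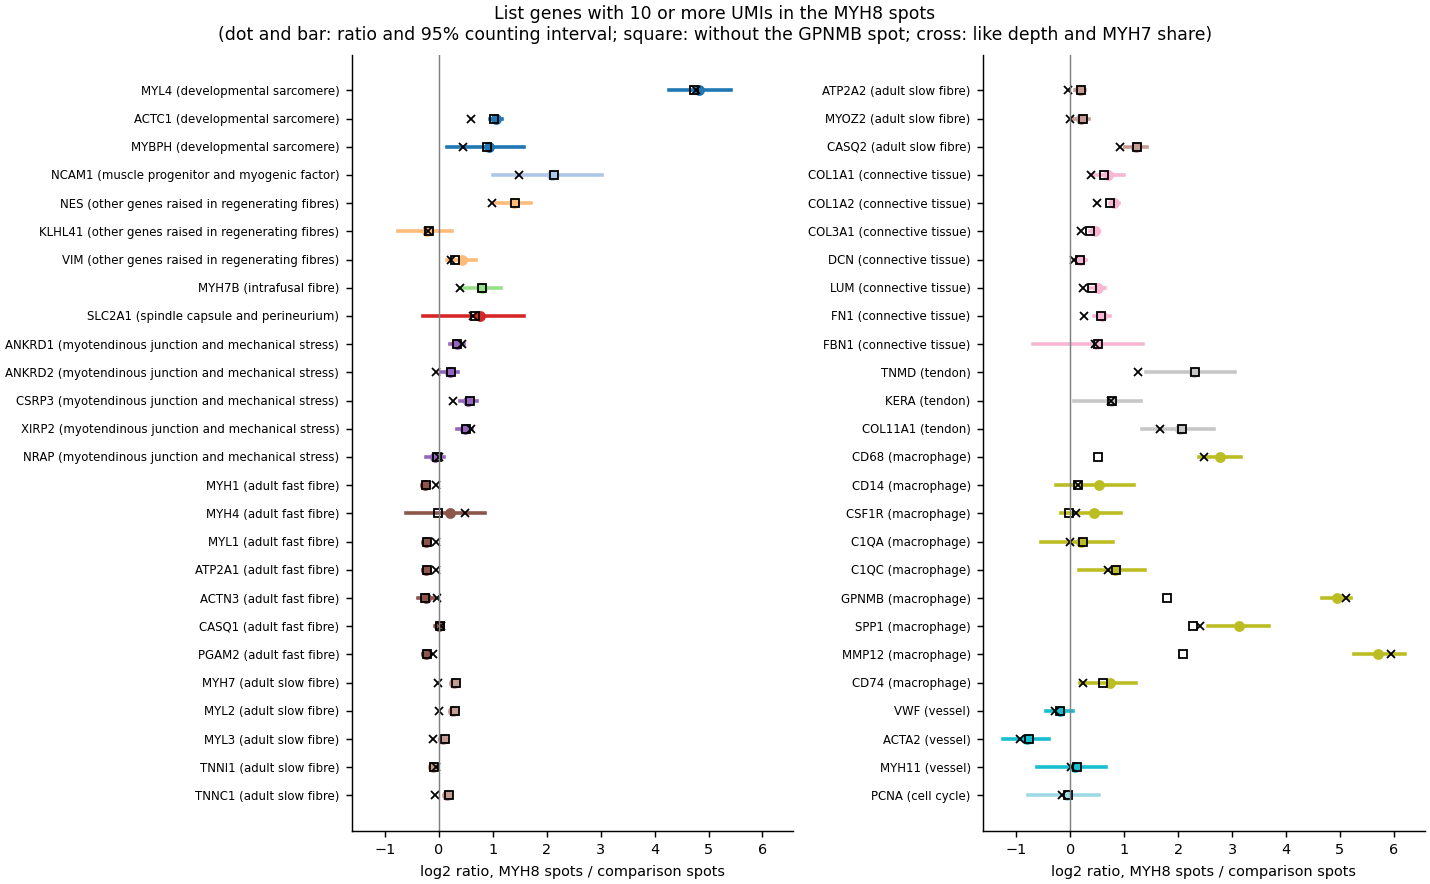
Log2 ratio between members and comparison spots (x axis) for the list genes with 10 or more UMIs in the members (y axis), with the 95% counting interval. Leaving out the GPNMB spot (squares) lowers CD68, GPNMB, SPP1 and MMP12, and also CSF1R (0.43 to -0.02) and CD14 (0.53 to 0.13). Weighting by depth and MYH7 share (crosses) lowers ACTC1, NES, TNMD and CASQ2 and leaves MYL4 at 4.76.

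The 4 genes at least 2-fold lower were PPP1R11, an inhibitor of protein phosphatase 1 (7 against 229 UMIs, log2 ratio -1.17), MFN1, a mitochondrial fusion protein (10 against 305, -1.10), SSH2, a phosphatase of actin regulators (10 against 302, -1.09), and the unnamed ENSOCUG00000001375 (4 against 208, -1.77), which was picked out after its values were seen. The next named genes by ratio were MTRES1 (-0.96), PDHA1 of the pyruvate dehydrogenase complex (-0.90), RABGGTA (-0.82), HPF1 (-0.80), ACTA2, UBE3A (-0.79), ME3 (-0.77), LMOD1 (-0.76) and FAN1 (-0.75). All of these but ACTA2 and LMOD1 rest on fewer than 20 UMIs in the members.

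The rule found 91 spots of 854 in the 2-week section, 25 of 1726 in the 16-week section and 6 of 1950 in the fresh healthy section. MYL4 was detected in 35 of the 91 spots 2 weeks after tenotomy (38.5%) and in 1.34% of the comparison spots there. At 16 weeks it was detected in 16 of 25 (64%) and in 9.92% of the comparison spots, and in the stored healthy section in 13.1% and 1.70%. In the fresh section 0 of 6 held MYL4, although its highest spot had 45 MYH8 UMIs. Median depth was 6548 UMIs in the MYH8 spots and 4419 in the comparison spots at 2 weeks, and 3941 and 2219.5 at 16 weeks. In the stored healthy section it was 5835 and 5159.5. The sections also differed in the MYH8 counts of their members. Spots with 5 or more MYH8 UMIs were 40 of the 91 at 2 weeks, 7 of the 25 at 16 weeks and 27 of the 122 in the stored healthy section. In the stored healthy section, MYL4 was detected in 1.64% of spots with 2 MYH8 UMIs and in 42.9% of those with 5 to 9. The parts of depth and of MYH8 count in these shares were not tested. ACTC1 was at 11.6 per 10000 UMIs in the 2-week MYH8 spots and 0.991 in the 2-week comparison spots, a log2 ratio of 3.55. The stored healthy members thus had an ACTC1 level like that of the 2-week spots, above a comparison level that was itself higher. MYBPH had a log2 ratio of 3.31 and ANKRD1 of 1.16 at 2 weeks, against 0.93 and 0.33 here. The differences between sections were not tested.

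At 2 weeks, 9 of 1108 tested genes were 2-fold higher in the MYH8 spots (0.812%) and 19 were 2-fold lower (1.71%). Of 1096 genes tested in both sections, 9 were 2-fold higher in the stored healthy section and 8 at 2 weeks. Both lists held ACTC1 and CASQ2, which are 22.2% of the first and 25% of the second. Over all 1096 genes the log2 ratios of the 2 sections had a Pearson correlation of 0.14 and a Spearman correlation of 0.045. Many of these genes had few UMIs in the members, and counting error lowers such correlations. They therefore cannot show how alike the 2 profiles were. The slow genes differed in sign, with MYH7 at 0.28 here and -1.13 at 2 weeks, and MYL2 at 0.27 and -0.71. The macrophage list had 171 UMIs in the 2-week MYH8 spots and 746 in the comparison spots, a log2 ratio of -0.10 (-0.35 to 0.14). Of its genes, CD74 had 71 and 222 UMIs, GPNMB 3 and 10, and MMP12 0 and 1. At 16 weeks the MYH8 spots had a log2 ratio of 4.55 for MYL4, 1.74 for ACTC1, 2.31 for CASQ2, 3.27 for NES and 3.54 for ANKRD1.

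The positions of the members could be told only by groups of positions. The tables carry no coordinates for single barcodes, but barcodes mark fixed slide positions, and the sets of sections that share a barcode divide the section into 8 groups of positions. In the 6 groups with 100 or more spots, members made up between 3.85% and 8.20% of spots, and each of the 6 held members with 5 or more MYH8 UMIs. The groups of 34 and 2 spots held 0 members. A cluster of members inside a group cannot be seen in these shares. Barcodes of 38 members were also under tissue in the 2-week section, where 8 of them were MYH8 spots too. In the 16-week section 70 were under tissue and in the fresh section 76, with 0 MYH8 spots in common. MYH8 spots made up 10.7% of all spots of the 2-week section, 1.45% of the 16-week section and 0.308% of the fresh section. These overlaps were not tested. Whether member spots were neighbors was not analysed here.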

How the data were processed

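Values are raw UMI counts of each gene in each spot under tissue, which the authors made with Space Ranger 1.2.0 against OryCun2.0 and deposited without normalization. All 2440 spots of the stored healthy section (12536450 UMIs) were read, and the 3 other sections held between 4079313 and 7017798 UMIs. The members, the gene lists and the comparisons were chosen with earlier results of these data known. Counts were summed over members and comparison spots, divided by the total of each group, and compared as log2 ratios with 0.5 UMI added. Intervals are exact conditional (Clopper-Pearson) for ratios, exact binomial for shares and Poisson for levels, at 95%. Genes needed 200 or more UMIs over both groups, MYH8 was left out, and 2-fold was the size named. Named genes were the list genes with a feature, with those of most UMIs as examples, and the 12 highest and 12 lowest ratios among genes with a symbol. The groups by MYL4, NES and COL11A1 were picked after values were seen. So were CTSK, CTSB, SPP1, SCARA3, ENSOCUG00000001375, ENSOCUG00000008699 and ENSOCUG00000011538, where given outside these ranks. A spot is a region and not a cell, so no doublet caller was run and fewer cells of a type cannot be told apart from less RNA per cell. Like depth weighted the comparison spots over 10 depth classes, and like depth and MYH7 share over 3 by 4 classes. In simulated data with the sizes of this comparison (1698 genes), the interval held the true value for 95.9% of unchanged genes, and for 92% and 88% of genes at 2-fold and 4-fold higher. The simulated counts were Poisson draws of the summed UMIs, without the clumping of UMIs in single spots. They therefore check the calculation only and cannot show how well the intervals hold for clumped genes. Alternatives also covered other MYH8 and UMI minimums, scaling without mitochondrial genes and equal weight of spots, and 2 further ones were chosen after seeing the data (without the GPNMB spot and without the 2 spots with most MYH8 UMIs). Some genes of the nerve and Schwann cell list are not reported here. Coordinates and sequences are not given, as no genome of this build was used here. Software was scipy 1.17.1, numpy 2.4.6, pandas 2.3.3 and matplotlib 3.10.9 under Python 3.11.15.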

Additional observations from a re-analysis of the deposited data

Results flagged for a closer look

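For 10 named genes the difference between MYH8 spots and comparison spots had the opposite sign in the stored healthy section and 2 weeks after tenotomy. They were flagged because both counting intervals excluded 0 on opposite sides, and the difference between the sections was not tested, as there was 1 section of each. Slow muscle genes made up most of them. Only the list genes and the named genes with the highest and lowest ratios were searched. These included the 8 tested genes of the adult slow fiber list. The number of genes searched is not given here, so this majority cannot show that slow genes were flagged more often than other genes. The log2 ratio in the stored healthy section and at 2 weeks was 0.28 and -1.13 for MYH7, 0.27 and -0.71 for MYL2, 0.071 and -0.90 for MYL3, 0.15 and -1.04 for TNNC1 (slow troponin C), 0.18 and -1.09 for ATP2A2 (the slow calcium pump), and 0.19 and -0.56 for MYOZ2. It was 0.20 and -0.95 for ANKRD2, a stress protein of slow fibers. MYL1, the fast light chain, had the reverse order, with -0.23 and 0.63. VIM was at 0.43 and -0.23, and CTSB at 1.51 and -0.38. Without the GPNMB spot, CTSB was at 0.16 in the stored healthy section and VIM at 0.29. At like depth 8 of the 10 had the other sign in the stored healthy section, with MYH7 at -0.16, MYL2 at -0.12, MYL3 at -0.17, TNNC1 at -0.17, ATP2A2 at -0.10, MYOZ2 at -0.092, ANKRD2 at -0.19 and MYL1 at 0.05. At like depth and MYH7 share, MYL1 was at -0.053 and MYL2 at 0.006, so these 2 had their first sign again.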

How the results depend on the processing

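Neither the summed developmental, intrafusal and progenitor lists nor the share of spots with MYL4 changed direction, while MYH7 and MYH1 did at like depth (-0.16 and 0.09), MYH7 at like depth and MYH7 share (-0.02) and MYH1 with members of 1 or more MYH8 UMIs (0.04). The counts of genes past 2-fold depended on most choices. Of genes higher in the MYH8 spots, 27 in the main comparison, there were 9 at like depth, 12 at like depth and MYH7 share, 6 with members of 1 or more MYH8 UMIs, 102 with 3 or more and 233 with 5 or more. There were 204 with a minimum of 50 UMIs per gene and 11 with 500, 177 at 1.5-fold, and 14 without the spot with most GPNMB UMIs. Of genes lower, 4 in the main comparison, there were 8, 7, 1, 11 and 30 under the first 5 of these settings, 84 with 50 UMIs per gene, 0 with 500 (no test was run, so no p-value stands beside it) and 27 at 1.5-fold. Stricter MYH8 minimums also leave fewer UMIs per gene in the members.

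The developmental sarcomere list, at 1.18, was at 0.57 at like depth, 0.73 at like depth and MYH7 share, 0.48, 1.76 and 2.22 with members of 1, 3 and 5 or more MYH8 UMIs, 0.94 with equal weight of spots, and 0.79 without the 2 as without the 5 spots with most MYH8 UMIs. The intrafusal list, at 0.76, was at 0.25 at like depth and at 0.22 with members of 1 or more. The progenitor list, at 0.51, was at 0.03 at like depth, 0.13 at like depth and MYH7 share, and 1.61 with members of 5 or more. The share of spots with MYL4 was 7.73 times that of comparison spots, and 3.25, 14.5 and 24.0 times with members of 1, 3 and 5 or more. The cause of these movements was not tested. Equal weight of spots and totals without mitochondrial genes give no value for that share. Of 70 alternative values of these summaries, 39 stayed within counting error or 1.5 times the main count. No paired analysis was possible because there was 1 section per condition and the result comes from no test.

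Depth limits the sparse genes most: spindle, nerve and precursor genes had 0 to 12 UMIs in the members except MYH7B.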

Other observations

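The unnamed feature ENSOCUG00000011538, which was picked out after its values were seen, was too low to be tested in the stored healthy section, with 36 UMIs in 21 of 122 members and 125 UMIs in 82 of 1946 comparison spots. Its log2 ratio was 1.98 (1.39 to 2.51) there, 2.12 at like depth, 2.27 at like depth and MYH7 share and 2.01 without the GPNMB spot. In the 2-week section it was 2.41 (34 against 26 UMIs), and in the 16-week section 3.27 (5 against 22 UMIs). No member held more than 3 of its UMIs, so it was spread over more spots than MYL4. RefSeq's gene table for the newer assembly mOryCun1.1 did not name it.

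Another unnamed feature, ENSOCUG00000008699, was also picked out after its values were seen and was too low to be tested. It had 55 UMIs in 14 members and 113 UMIs in 41 comparison spots, a log2 ratio of 2.73 (2.23 to 3.20) and of 1.06 at like depth. The ratio was 4.69 at 2 weeks (9 against 1 UMIs) and 5.60 at 16 weeks (16 against 13 UMIs). Of the 55 UMIs, 46 lay in 8 of the 11 NES-rich members. Of the 113, 78 lay in 16 of the 33 NES-rich spots with 0 MYH8 UMIs. The members with MYL4 held 0. GLNB2, lower in the MYH8 spots of both sections, had a log2 ratio of -0.52 in the stored healthy section and -4.44 at 2 weeks.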
